A study of Homo sapiens with 22 samples.

Results

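Ion channel and neurotransmitter-gated receptor genes were followed in RNA-seq libraries of 11 established human glioblastoma cell lines. Members were taken by symbol: potassium (KCN), sodium (SCN) and calcium (CACN) channel subunits, TRP channels, CLC channels, anoctamins (ANO), ionotropic glutamate (GRI), GABA-A (GABR) and nicotinic (CHRN) receptor subunits, and P2X receptors. The symbol pattern itself uses no measured value, but the families were chosen with earlier results of these data known. The pattern found 99 of the 6822 genes that the deposited tables list, 39 in a table of 8 lines and 81 in a table of 3 lines, with 21 in both. Of the 99, 92 fell into 14 channel families. The other 7 carry a channel gene's symbol and are, by name, antisense, intronic or divergent transcripts and a pseudogene. The annotation lists KCNJ5-AS1 as protein-coding. All 7 stay in the counts of members but are not called channels.

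Ion channels are membrane proteins that open a pore for sodium, potassium, calcium or chloride. Voltage-gated channels open when the membrane potential shifts, inward rectifier and tandem-pore (K2P) potassium channels set the resting potential, calcium-activated channels follow calcium inside the cell, and receptor channels open when a transmitter binds. In glioma cells, potassium and chloride channels are known for the volume changes that accompany cell movement, and glutamate receptors for signalling with neurons.

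The 8-line table (2221 genes) covers U-138MG, U-87MG, T98G, SNU-1105, LN-229, LN-18, KNS-42 and KALS-1, and the 3-line table (5383 genes) SNU-466, AM-38 and A-172. Each was untreated and had 2 libraries of strand-specific poly(A) RNA, and each is a single cultured line, not a set of tumours. Cells grew with serum in RPMI 1640 (SNU-1105, SNU-466, KALS-1), EMEM (U-87MG, U-138MG, T98G, AM-38) or DMEM (LN-229, LN-18, KNS-42, A-172), at 20% serum for AM-38 and 10% for the others, so line and medium cannot be told apart. The labels do not tell whether the paired libraries of each line stem from different cultures. The p-values therefore measure the spread between libraries, which may be technical. Library totals were 16958669 to 21213215 reads.

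The tables list selected genes, and how these were chosen is not stated. In the 8-line table, 99.3% of genes, and all 39 members, differed at least 2-fold between a set of 3 lines (T98G, LN-18, KALS-1) and the remaining 5. In the 3-line table, 93.9% of genes, and 79 of the 81 members, differed as much between SNU-466 and the other lines. A channel gene missing from a table is therefore not shown to be silent, and every share below is a share of listed genes. Of the glioma and neural lineage markers, VIM stood between 239 and 1045 FPKM in all 16 libraries of the 8-line table. SOX2 stood at 312 and 326 FPKM in KNS-42 and at 0 to 51.8 FPKM in the other lines of that table. In the 3-line table NES had means of 24.0 to 84.2 FPKM, and GFAP, the defining astrocyte marker, reached 3.31 and 3.51 FPKM in SNU-466 but 0.12 or less in A-172 and AM-38. The 7 lineage markers listed there did not share a direction: 4 were called higher in SNU-466 and 1 in AM-38. The latter, the astrocyte marker ALDH1L1, was at 1.53 and 1.39 FPKM in AM-38 and at 0.03 or less in the other lines. S100B stood at 958.04 and 958.39 FPKM in SNU-466 and at 0.97 or less in the other lines. EGFR was called lower in SNU-466, at 0.01 FPKM or less, against 21.68 to 29.46 in the other lines. Of the 4 neuron markers listed there, MAP2 and SNAP25 were called higher in SNU-466, SYT1 was called lower, and STMN2 was not tested. KRT18, the only epithelial marker listed there, was called higher in A-172 and lower in SNU-466. Of 4 immune markers, all listed in the 8-line table, each was called higher in a single line: CD14 (6.1 and 6.57 FPKM) and PTPRC (0.38 and 0.39) in KALS-1, CSF1R (5.09 and 4.38) in SNU-1105 and ITGAM (0.19 and 0.38) in T98G. Of the 3 listed in the 3-line table, none had a mean above 0.53 FPKM. The part of such cells in the results was not tested. The libraries of T98G lay furthest apart: 55.8% of tested genes, and 18 of 38 members, were within 1.5-fold between them, against 66.6% of genes in SNU-1105 and 78.3% to 89.1% in the other lines.

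RefSeq start sites (GRCh38.p14) were matched for 73 of the 99 members, in 119 windows from 250 bases before to 50 after a start. The 150 bases before the start of 3 genes that were called higher in a single line than in every other line of their table are shown, with each GC box in capitals (GGGCGG on either strand). GABRQ and KCNJ6 stood highest in KNS-42, and KCNJ2 in AM-38. These stretches lie at chrX:152637745-152637894 (plus strand), chr21:37916458-37916607 (minus strand) and chr17:70169382-70169531 (plus strand).
GABRQ: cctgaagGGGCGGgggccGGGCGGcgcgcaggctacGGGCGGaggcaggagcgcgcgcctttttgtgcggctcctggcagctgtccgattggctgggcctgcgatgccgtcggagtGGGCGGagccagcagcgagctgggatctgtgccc
KCNJ6: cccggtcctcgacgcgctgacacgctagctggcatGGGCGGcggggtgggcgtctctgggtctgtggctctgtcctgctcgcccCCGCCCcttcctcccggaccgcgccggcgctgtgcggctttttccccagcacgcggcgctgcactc
KCNJ2: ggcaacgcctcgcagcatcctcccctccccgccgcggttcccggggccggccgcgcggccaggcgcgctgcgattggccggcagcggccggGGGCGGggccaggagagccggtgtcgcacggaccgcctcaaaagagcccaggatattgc

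The stretches hold 4, 2 and 1 GC boxes in the order shown. GC boxes were in 62 of the 119 member windows (52.1%), against 45.0% of all 35116 windows. The TATA box letters TATAAA, on either strand, were in 12 member windows (10.1%), against 11.5% of all windows. The consensus of RE1, the site bound by the repressor REST, which silences neuronal genes outside neurons, was searched on both strands. It was in 0.0399% of all windows and in 1 member window, that of GRIA2, the AMPA receptor subunit that limits calcium entry. The 30 bases around that match lie at chr4:157220385-157220414 (plus strand), with the matching letters in capitals.
GRIA2: cgaggcgCTGTCCTCGGTGCTGAaaggccg

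GRIA2 was nearly silent in the 8-line table, with 0.21 and 0.15 FPKM in LN-229 and 0.07 FPKM or less in every library of the other 7 lines. A motif match describes the letters and shows no binding.

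Most members stood low. Levels are the deposited FPKM, reads scaled by the deposited gene length and by the library's total. Some deposited lengths are long, such as 43150 bases for CACNA1A and 39437 for KCNMA1, which lowers their FPKM. In U-87MG, CACNA1A had 8419 reads at 4.82 FPKM, and GABRQ 5285 reads at 20.2 FPKM. The order of members within a line, the sums and the counts at 1 FPKM below therefore depend on these lengths. Of the 39 members in the 8-line table, 23 reached a mean of 1 FPKM in some line (59.0%, against 72.0% of listed genes), and 4 reached 10 FPKM. No member stood at 1 FPKM or more in every line, 14 did so in a single line, and 20 had no reads in at least 1 line. Of the 81 members in the 3-line table, 45 reached 1 FPKM (55.6%, against 71.4% of listed genes), 5 reached 10 FPKM, 3 stood at 1 FPKM or more in all 3 lines and 26 in a single line. In bulk RNA, a low level from few cells and one from little RNA per cell cannot be told apart.

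The lines carried channel sets of unequal size. KNS-42 had 14 of the 39 members at 1 FPKM or more, and the other 7 lines had 3 to 6: LN-229 had 6, U-138MG 5, T98G and U-87MG 4 each, and KALS-1, LN-18 and SNU-1105 3 each. Over all listed genes the share at 1 FPKM or more was 38.6% in KNS-42 and at most 37.2% in the other lines. The share of members was 35.9% in KNS-42, slightly under that of its listed genes. In the other lines the share of members was 7.69% to 15.4%, well under that of listed genes in each line. By this measure KNS-42 was near its listed genes, and the other lines were low in members. KNS-42 was the line of highest mean for 16 members (41.0%), against 16.9% of listed genes. Summed over members, levels were 121 FPKM in KNS-42, 93.4 in T98G, 45.6 in KALS-1 and 17.7 to 32.8 in the other 5 lines. The libraries of T98G summed to 56.2 and 131 FPKM and those of KNS-42 to 129 and 114, so the order of these lines rests on which T98G library is taken. A single gene held most of some sums: KCNE4 made up 82.6% of that of T98G and 82.1% of that of KALS-1, and GABRQ 61.5% of that of U-87MG. In the 3-line table AM-38 had 26 of 81 members at 1 FPKM or more, A-172 23 and SNU-466 18. Over all listed genes the shares ran in the same order, at 51.8%, 49.7% and 45.9%. Member levels summed to 105, 109 and 169 FPKM in that order of lines.

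**Figure D1:**
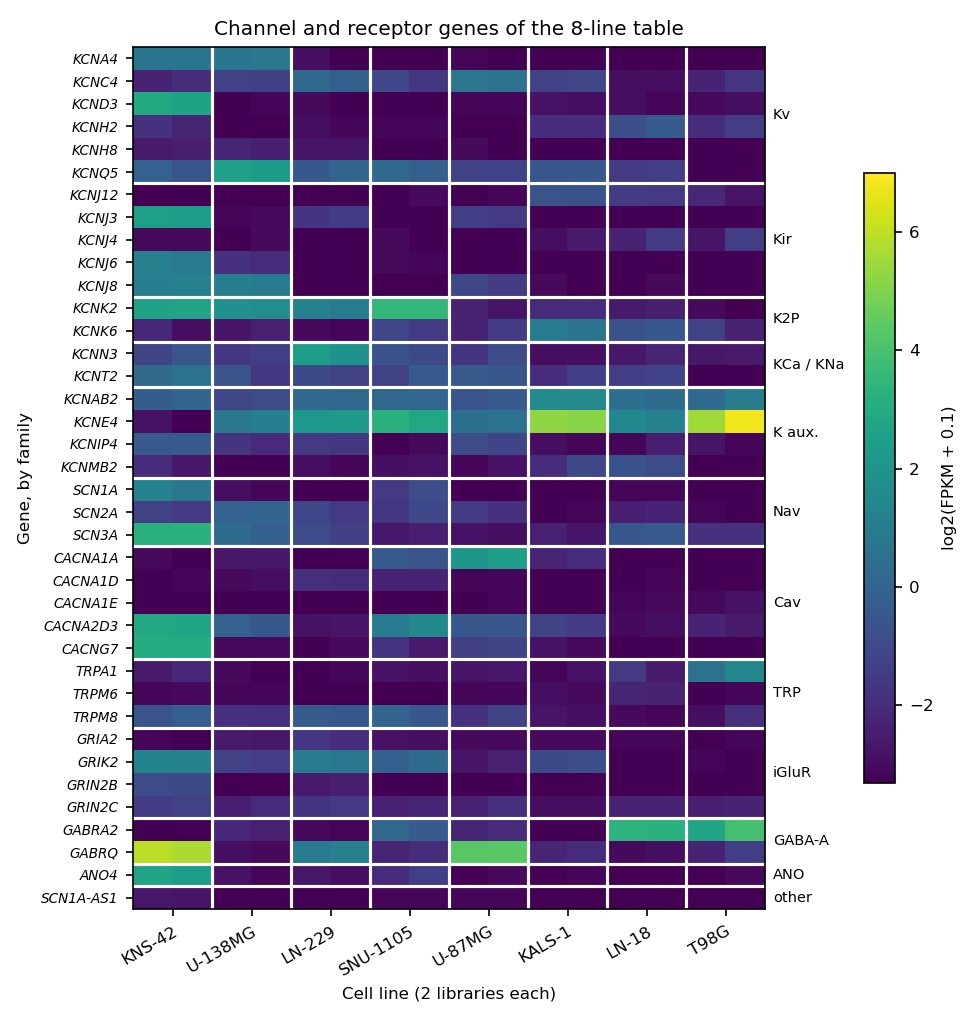
Levels of 38 members of the 8-line table as log2(FPKM + 0.1), by family (rows) and library (columns, 2 per line). KNS-42 has the most bright rows, with 14 members at 1 FPKM or more, KCNE4 is bright in T98G and KALS-1 and dark in KNS-42, and GABRA2 is bright in T98G and LN-18.

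Counts were tested within each table by edgeR's quasi-likelihood test, with Benjamini-Hochberg adjustment over all tested genes and a called difference of at least 2-fold. All 38 tested members of the 8-line table differed among the lines, as did 99.7% of tested genes. The largest differences between line means had a median of 6.36 on the log2 scale over members and 4.71 over all tested genes. A line was called higher than every other line for 19 members (39.7% of all tested genes) and lower than every other line for 4 (9.64%). In the 3-line table all 77 tested members differed (98.1% of tested genes), with a median range of 4.84 against 3.24. There, some line was called higher for 63 members (64.4% of genes) and lower for 43 (58.4%). Over pairs of lines, 664 of 1064 member comparisons were called in the 8-line table (62.4%, against 57.8% of all), and 188 of 231 in the 3-line table (81.4%, against 75.1%). Nearly all listed genes differed among the lines, so a member that differed does not stand out from them by that.

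KNS-42 stood apart in the 8-line table by the number of members it led. It was higher than every other line for 11 of 38 tested members (28.9%), against 7.73% of all tested genes: GABRQ, ANO4, KCNJ3, KCNJ6, GRIN2B, SCN1A, SCN3A, KCND3, CACNA2D3, CACNG7 and the antisense transcript SCN1A-AS1. The other 7 lines together had 8. Relative to the mean of the other lines, members had a median log2 difference of 1.37 in KNS-42, whereas that of all tested genes was -0.05. Beside these genes, KNS-42 had 6.03 and 4.92 FPKM of SYT1, the only neuron marker of 6 that is listed in the 8-line table. LN-229 had 6.5 and 6.21 FPKM of SYT1, U-87MG 4.5 and 3.9, U-138MG 2.7 and 1.99 and the other 4 lines 0.36 or less. The part of SYT1-expressing cells in the result was not tested. All 39 members differed at least 2-fold between T98G, LN-18 and KALS-1 and the side that includes KNS-42. A gene high in KNS-42 alone shows that difference through KNS-42, so its listing and its call are not shown to be independent. The same holds for genes high in a single other line of either table.

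**Figure D2:**
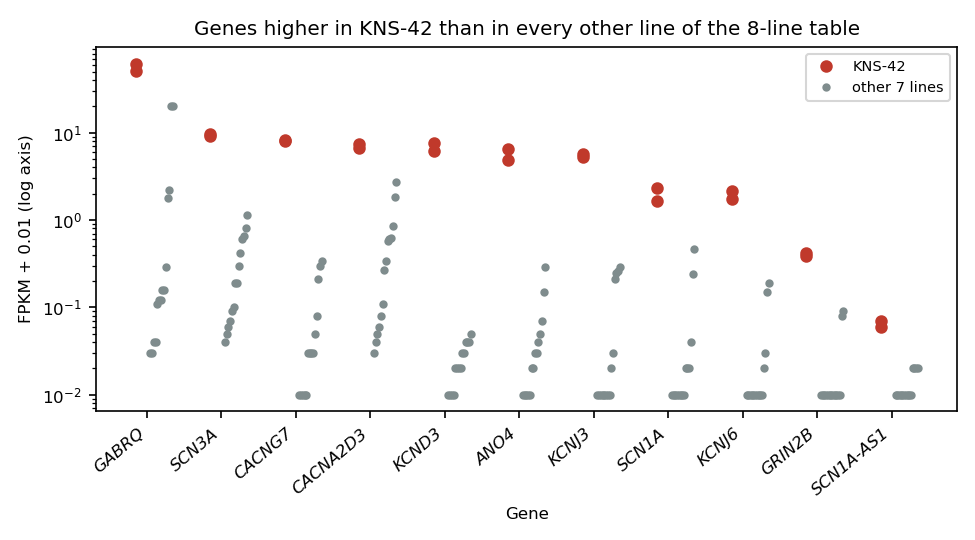
FPKM (log axis, 0.01 added) of the 11 genes that were higher in KNS-42 than in every other line, with the 2 KNS-42 libraries in red and the 14 libraries of the other 7 lines in grey. The genes were chosen by that call, so the gap between red and grey points follows from the choice.

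GABRQ, the theta subunit of GABA-A receptors (chrX:152638183-152657534, plus strand), was the highest member in KNS-42, at 61.8 and 51.1 FPKM. U-87MG followed with 20.1 and 20.2 FPKM and LN-229 with 1.76 and 2.18, and all libraries of the other 5 lines held 0.28 FPKM or less. KNS-42 exceeded U-87MG by 1.49 on the log2 scale (SE 0.25, adjusted p = 0.000321). GABRA2, an alpha subunit that forms part of the GABA and benzodiazepine sites, was led by other lines. It stood at 6.72 and 15.5 FPKM in T98G, 10.2 and 9.52 in LN-18, 0.97 and 0.67 in SNU-1105 and 0.14 or less elsewhere, with 2 reads in KNS-42. T98G and LN-18 overlapped and were not called different (log2 difference 0.17, SE 0.29, adjusted p = 0.641).

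**Figure D3:**
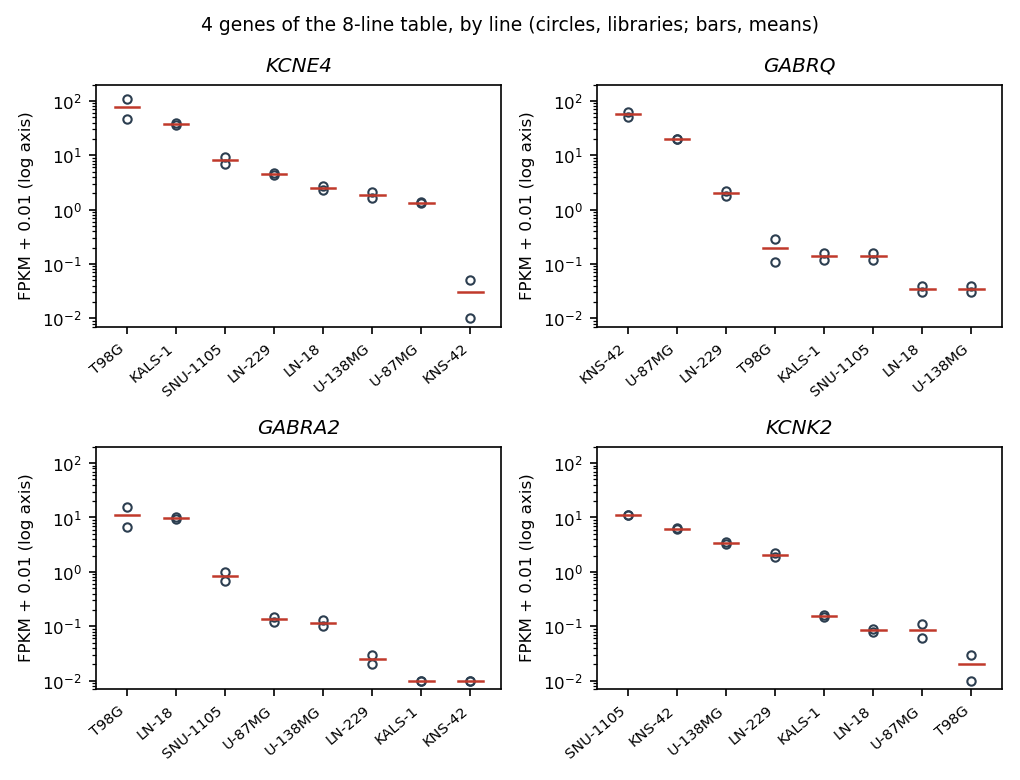
FPKM (log axis, 0.01 added) of KCNE4, GABRQ, GABRA2 and KCNK2 in the 8 lines, ordered by mean. Circles are libraries and bars are means. GABRQ and GABRA2 are led by different lines, and KCNE4 covers all lines except KNS-42 at more than 1 FPKM.

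The GABA-A subunits GABRA3, GABRG1 and GABRE of the 3-line table were low in SNU-466. GABRA3, another alpha subunit, stood at 5.76 and 6.13 FPKM in A-172, 2.67 and 2.77 in AM-38 and 0.03 and 0.04 in SNU-466. A-172 was called higher than AM-38 by 1.13 on the log2 scale (SE 0.11, adjusted p = 4.86e-15), and with RLE scaling the difference was 0.92, under the 2-fold limit. The gamma subunit GABRG1 had 0.78 and 0.77 FPKM in AM-38 and 0.02 or less in A-172, and GABRE, the epsilon subunit, 0.5 and 0.56 FPKM in AM-38 and 0.03 or less in A-172. GABRE and GABRG1 had 0 reads in both SNU-466 libraries.

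Among glutamate receptors, kainate subunits led. GRIK3 stood at 7.16 and 7.34 FPKM in SNU-466, with 3 reads in each of A-172 and AM-38. GRIK2 was present in both tables. It had 2.45 and 2.29 FPKM in KNS-42, 1.81 and 1.58 in LN-229, 0.82 and 1.13 in SNU-1105 and 0.46 or less in the other 5 lines. KNS-42 and LN-229 were not called different for it (log2 difference 0.48, SE 0.25, adjusted p = 0.101). Among the 3 lines GRIK2 had 2.73 and 2.74 FPKM in SNU-466, 0.13 and 0.16 in AM-38 and 0.01 or less in A-172. GRIK5, a subunit that needs such partners to form a working receptor, was instead highest in AM-38, at 2.17 and 1.95 FPKM, against 0.07 or less in the other lines.

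The NMDA receptor subunits that were listed, GRIN2A, GRIN2B and GRIN2C, were low wherever listed. GRIN2B reached 0.41 and 0.38 FPKM in KNS-42, called over LN-229 (0.07 and 0.08 FPKM) by 2.40 on the log2 scale (SE 0.35, adjusted p = 0.000154). Its highest values in the 3-line table were 0.04 and 0.04 FPKM, in SNU-466. GRIN2C stood between 0.03 and 0.3 FPKM in all 8 lines, and no line was called higher. GRIN2A was called higher in A-172 at only 0.07 and 0.09 FPKM. That call was lost without A-172 library 2 or either AM-38 library, and with RLE scaling or DESeq2, with adjusted p up to 0.302.

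All 5 listed P2X receptors, cation channels opened by extracellular ATP, were in the 3-line table, and their leading line differed. P2RX7, which opens at high ATP and is known from microglia and macrophages, was the highest member of that table. It had 47.5 and 44.1 FPKM in SNU-466, 1.13 and 1.06 in A-172 and 0.65 and 0.91 in AM-38, and SNU-466 exceeded A-172 by 5.39 on the log2 scale (SE 0.09, adjusted p = 5.62e-68). P2RX7 lies at chr12:121132819-121188032 (plus strand). P2RX4, which opens at lower ATP, was also led by SNU-466, at 4.46 and 4.71 FPKM in SNU-466, 1.81 and 1.8 in AM-38 and 1.69 and 1.48 in A-172, and with RLE scaling its lead over AM-38 was 0.82 on the log2 scale, under the limit.

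The microglial and macrophage markers PTPRC, ITGAM and CSF1R had means of 0, 0 and 0.025 FPKM in SNU-466, below the other lines. P2RX6 stood at 8.8 and 9.28 FPKM in SNU-466, 3.71 and 3.05 in A-172 and 0.39 and 0.34 in AM-38, but reads from a related pseudogene could not be told apart. P2RX5 was led by A-172, at 3.76 and 4.13 FPKM, against 0.04 or less in AM-38 and 0 reads in SNU-466. A read-through transcript with TAX1BP3 overlaps that gene on its strand. P2RX1 reached 0.7 and 0.5 FPKM in A-172, against 0.11 and 0.01 in AM-38 and 0 reads in SNU-466.

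**Figure D4:**
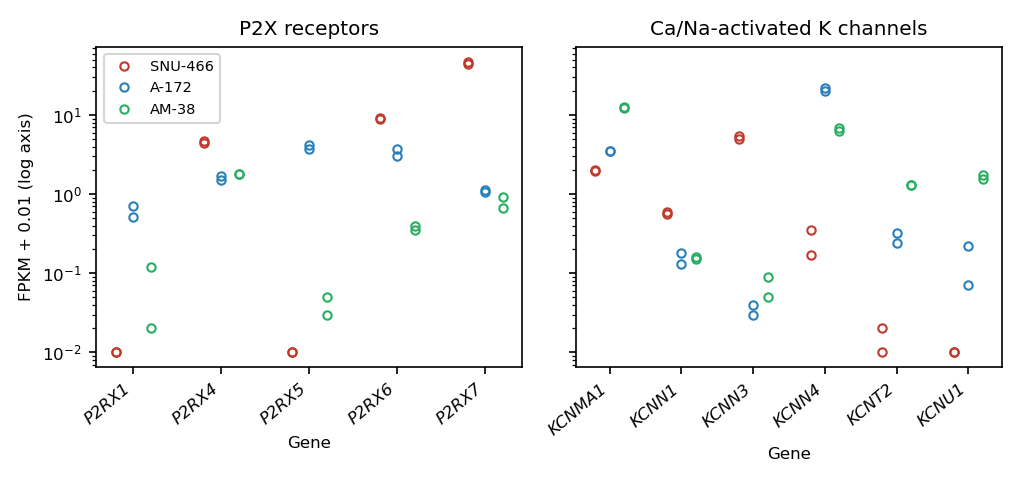
FPKM (log axis, 0.01 added) of P2X receptors (left) and calcium- or sodium-activated potassium channels (right) in both libraries of SNU-466, A-172 and AM-38. P2RX7, P2RX6 and P2RX4 are highest in SNU-466, P2RX1, P2RX5 and KCNN4 in A-172, and KCNMA1, KCNT2 and KCNU1 in AM-38.

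Of 16 nicotinic receptor genes in the gene name table, 2 were listed, both in the 3-line table. CHRNA5, an accessory alpha subunit, had 2.45 and 1.86 FPKM in A-172, 1.42 and 1.3 in AM-38 and 0.41 and 0.58 in SNU-466, which was called lower than both. CHRNA7, whose reads could also stem from its partial copy CHRFAM7A, reached 0.17 and 0.19 FPKM in AM-38 and 0.01 or less in the other lines.

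Potassium channel genes made up 45 of the 92 family members, counting auxiliary subunits. Of the members called higher in KNS-42, the voltage-gated subunit KCND3, which carries a fast transient current, exceeded the nearest line the most. It had 7.58 and 6.21 FPKM there and 0.04 or less in all 14 libraries of the other lines, a log2 difference of 7.63 from the nearest, KALS-1 (SE 0.46, adjusted p = 1.38e-08). KCND3 stood at 4.39 and 4.2 FPKM in SNU-466 and at 0.02 or less in A-172 and AM-38. Its cytosolic partner KCNIP4, which tunes that current, did not follow it there: KCNIP4 had 2.96 and 2.81 FPKM in AM-38, against 0.07 or less in SNU-466 and A-172. In the 8-line table KCNIP4 reached 0.63 and 0.68 FPKM in KNS-42 and 0.43 and 0.34 in U-87MG, with 0.24 or less elsewhere, and no line was called higher.

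KCNQ5, a subunit of slow M-type channels that damp firing, marked U-138MG. It stood at 5.6 and 4.79 FPKM there, at 1.05 and 0.77 in SNU-1105 and between 0.24 and 0.92 in LN-229, KNS-42, KALS-1, U-87MG and LN-18. U-138MG exceeded SNU-1105 by 2.51 on the log2 scale (SE 0.28, adjusted p = 1.68e-05). T98G had 0 reads of KCNQ5 in both libraries, at least 34.3-fold lower than LN-18 when 3 reads are taken over its libraries. KCNQ5 had 3.39 and 3.53 FPKM in AM-38 and 3.14 and 3.06 in A-172, which were not called different (adjusted p = 0.0685), and 0.61 and 0.55 in SNU-466. KCNQ5-DT, transcribed away from its start, was highest in A-172 at 0.62 and 0.46 FPKM.

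KCNA4, a fast-inactivating subunit, was shared by U-138MG (1.51 and 1.59 FPKM) and KNS-42 (1.47 and 1.5), which were not called different (adjusted p = 0.935), and stood at 0.03 or less in the other 6 lines. KCNC4 was led by U-87MG, at 1.58 and 1.44 FPKM, with 1.01 and 0.81 in LN-229. LN-18, at 0.03 and 0.03 FPKM, was called lower than every other line for KCNC4 (log2 difference -2.22 from KNS-42, SE 0.41, adjusted p = 0.00329). KCNH2, the hERG channel of cardiac repolarisation, reached only 0.46 and 0.71 FPKM in LN-18 and 0.27 or less in the other 7 lines. Its call over T98G had an adjusted p of 0.0356. It was lost without either KALS-1 library, KNS-42 library 2, either LN-18 library or T98G library 1, and with TMM scaling or DESeq2, with adjusted p up to 0.506. KCNH2 had 0.85 and 0.95 FPKM in A-172 and 0.02 or less in AM-38 and SNU-466. KCNH8 was at or below 0.11 FPKM in the 8 lines, where it was too low to test, and at 0.46 and 0.62 FPKM in SNU-466, against 0.03 or less in A-172 and AM-38.

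Of the 14 tested voltage-gated potassium subunits in the 3-line table, 7 were called higher in SNU-466 (32% of all tested genes), 4 in A-172 (13.1%) and 1 in AM-38 (19.3%). KCNA2, the subunit of low-threshold delayed currents, had 4.32 and 3.97 FPKM in SNU-466, 0.06 and 0.11 in A-172 and a single read in AM-38. SNU-466 exceeded A-172 for KCNA2 by 5.58 on the log2 scale (SE 0.14, adjusted p = 3.6e-54). KCNG1, a modifier subunit that forms no channel alone, had 6.73 and 5.83 FPKM in AM-38, 1.34 and 1.3 in A-172 and 0.39 and 0.55 in SNU-466. KCNS3, another modifier, was at 1.56 and 1.55 FPKM in A-172 and 0.15 or less in the other lines, and KCND1 at 1.32 and 1.06 FPKM in A-172, 0.48 and 0.54 in AM-38 and 0.1 or less in SNU-466. KCNC1, KCNH1, KCNH4 and KCNQ1 had line means under 1 FPKM.

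KCNJ3 and KCNJ6, the subunits of channels opened by G proteins, were both highest in KNS-42. KCNJ3 had 5.74 and 5.32 FPKM there, 0.28 or less in U-87MG and LN-229, 0.02 or less in U-138MG and 0 reads in the other 4 lines. KCNJ6 had 2.13 and 1.73 FPKM in KNS-42, 0.18 and 0.14 in U-138MG and 0.02 or less elsewhere. KNS-42 exceeded the nearest line by 4.40 (SE 0.34, adjusted p = 4.78e-07) and 3.55 on the log2 scale (SE 0.35, adjusted p = 4.45e-06) for KCNJ3 and KCNJ6 in that order. KCNJ8, the pore of ATP-sensitive channels in vascular cells, was shared by KNS-42 (2.09 and 2.16 FPKM) and U-138MG (2.05 and 1.77), which were not called different (adjusted p = 0.736). U-87MG had 0.37 and 0.26 FPKM of KCNJ8 and the other 5 lines 0.02 or less.

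KCNJ2, the strong rectifier Kir2.1, was a mark of AM-38 in the 3-line table, at 6.33 and 6.45 FPKM and 1465 reads. A-172 and SNU-466 had 0 reads in both libraries, so AM-38 was at least 471-fold higher than A-172, with 3 reads taken over that line. KCNJ12, which shares nearly all of its sequence with KCNJ18, was low in both tables, at 0.52 and 0.51 FPKM in KALS-1 and 0.12 or less in 6 lines, with LN-18 at 0.26 and 0.24. It had 0.43 and 0.34 FPKM in SNU-466 and 0.16 or less in AM-38 and A-172. KCNJ10, the main rectifier of mature astrocytes (Kir4.1), reached 0.31 and 0.27 FPKM in SNU-466, 0.06 or less in A-172 and 0 reads in AM-38.

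Of the K2P channels, which pass a steady background current, KCNK2 (TREK-1, opened by stretch and lipids) was the highest. It formed a ladder of 4 lines, with 11.3 and 11.2 FPKM in SNU-1105, 6.09 and 6.39 in KNS-42, 3.6 and 3.29 in U-138MG and 2.22 and 1.88 in LN-229. The other 4 lines had 0.15 FPKM or less. Successive steps of the ladder were 0.85, 0.86 and 0.75 on the log2 scale, each under the 2-fold limit although adjusted p over genes and pairs was 0.00541, 0.00565 and 0.0152. LN-229 exceeded the next line, KALS-1, by 3.80 (SE 0.34).

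KCNK6 had 1.85 and 1.43 FPKM in KALS-1; LN-18 followed with 0.49 and 0.59, and the other lines of its table had 0.36 or less. KALS-1 was called higher (log2 difference 1.61, SE 0.45, adjusted p = 0.0295), and the call was lost without either KALS-1 or either LN-18 library, with DESeq2, with limma and with RLE scaling. KCNK6 had 2.64 and 2.83 FPKM in SNU-466, 0.61 and 0.6 in A-172 and 0.13 and 0.14 in AM-38. The other 5 K2P genes of that table had their highest means in SNU-466 or AM-38. KCNK5, a channel sensitive to alkaline pH, had 1.78 and 1.64 FPKM in SNU-466 and 0 reads in both other lines, at least 85.6-fold higher than A-172. KCNK13 had 4.39 and 4.1 FPKM in AM-38 and 0.13 or less elsewhere. KCNK1 had 2 and 1.86 FPKM in AM-38, 1.25 and 1.2 in A-172 and 0.07 or less in SNU-466.

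Calcium-activated potassium channels differed in kind between the 3 lines. KCNN4, the intermediate-conductance channel known for glioma cell movement, stood at 22.1 and 20.4 FPKM in A-172, 6.84 and 6.27 in AM-38 and 0.34 and 0.16 in SNU-466. KCNMA1, the large-conductance BK channel, had 12.2 and 12.5 FPKM in AM-38, 3.54 and 3.49 in A-172 and 1.97 and 2.03 in SNU-466. KCNN3, a small-conductance channel, had 5.46 and 5.02 FPKM in SNU-466 and 0.08 or less in the other 2 lines. Each of the 3 lines thus led for a different conductance class, and each lead passed the test (log2 differences from the nearest line of 1.69, 1.81 and 6.42 with SE 0.09, 0.05 and 0.15 for KCNN4, KCNMA1 and KCNN3 in that order).

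In the 8-line table KCNN3 had 5.48 and 3.86 FPKM in LN-229 and 0.56 or less in all other lines, called over SNU-1105 by 3.36 on the log2 scale (SE 0.35, adjusted p = 3.98e-06). KCNT2, a sodium-activated channel, had 1.07 and 1.38 FPKM in KNS-42, between 0.15 and 0.69 in 6 lines and 0 reads in T98G, at least 18.2-fold lower than KALS-1. It had 1.28 and 1.3 FPKM in AM-38, 0.31 and 0.23 in A-172 and a single read in SNU-466. KCNU1, the pH-gated relative of BK channels known from sperm, had 1.76 and 1.54 FPKM in AM-38, 0.21 or less in A-172 and 0 reads in SNU-466.

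KCNE4, a single-span auxiliary subunit that inhibits several voltage-gated potassium channels (chr2:223051814-223198399, plus strand), had the highest mean of any member in a line, in T98G. With T98G library 2 left out it would lie below GABRQ in KNS-42. KCNE4 stood at 45.7 and 109 FPKM in T98G, whose libraries lay far apart, and at 38.9 and 36 in KALS-1. SNU-1105 had 9.42 and 7 FPKM, LN-229 4.41 and 4.73, LN-18 2.75 and 2.24, U-138MG 1.61 and 2.09 and U-87MG 1.3 and 1.37. KNS-42 had 0.04 and 0 FPKM (3 reads in all) and was called lower than every other line (log2 difference from U-87MG -5.91, SE 0.64, adjusted p = 1.63e-05). As pairs, T98G exceeded KALS-1 by 1.04 (SE 0.31, adjusted p = 0.00728 over genes and pairs) and KALS-1 exceeded SNU-1105 by 2.19 (SE 0.33), although T98G did not pass the test against every other line. The steps from SNU-1105 down through LN-229, LN-18, U-138MG and U-87MG were 0.43 to 0.87, under the 2-fold limit. KCNE4 had 15.1 and 16.1 FPKM in SNU-466 and 0.1 or less in AM-38 and A-172, a log2 difference of 8.02 (SE 0.20, adjusted p = 4.96e-53).

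The auxiliary beta subunit KCNAB2 was present in all 16 libraries of the 8-line table. It had 2.99 and 2.8 FPKM in KALS-1, 1.04 and 1.93 in T98G, 1.28 and 1.17 in LN-18 and between 0.36 and 1.04 in the other 5 lines. No neighbours in the order of means differed by 2-fold; the largest step, between KALS-1 and T98G, was 0.97 on the log2 scale (SE 0.26, adjusted p = 0.00292 over genes and pairs). KCNMB2, a beta subunit of BK channels, reached 0.5 and 0.43 FPKM in LN-18. KCNIP3, a calcium-binding partner of transient potassium channels, had 2.25 and 2.16 FPKM in AM-38, 1.22 and 1.33 in A-172 and 0.67 and 0.72 in SNU-466.

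Voltage-gated sodium channels carry the rising phase of action potentials. Of their 4 genes in the 8-line table, SCN3A and SCN1A were called higher in KNS-42 (7.73% of all tested genes). SCN3A, the subtype of the developing brain, had 9.18 and 9.57 FPKM there, 1.12 and 0.79 in U-138MG, 0.6 and 0.64 in LN-18 and 0.41 or less in the other 5 lines. KNS-42 exceeded U-138MG by 3.30 on the log2 scale (SE 0.26, adjusted p = 5.98e-08). SCN1A had 2.29 and 1.64 FPKM in KNS-42, 0.23 and 0.45 in SNU-1105 and 0.03 or less elsewhere (log2 difference 2.52, SE 0.37, adjusted p = 0.000154). SCN1A-AS1, which overlaps SCN1A on the other strand, had 0.06 and 0.05 FPKM in KNS-42. Its call was lost without either library of KNS-42, SNU-1105 or U-87MG, with adjusted p of 0.0593 to 0.191, and with DESeq2, where the adjusted p was 1. Whether the authors' counting used strand is not stated, so reads of SCN1A and SCN1A-AS1 cannot be told apart.

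SCN2A overlaps the start of SCN3A on the other strand, at chr2:165194993-165392310 against chr2:165087522-165204067. SCN2A was nonetheless led by another line, with 0.86 and 0.92 FPKM in U-138MG, 0.37 and 0.24 in LN-229 and 0.39 or less in all others. The call (log2 difference 1.54, SE 0.35, adjusted p = 0.0127) was lost with limma and without KNS-42 library 2, LN-229 library 2, SNU-1105 library 1 or either U-138MG library. SCN2A had 0.84 and 0.87 FPKM in AM-38 and 0.01 or less elsewhere, and SCN3A 0.18 and 0.21 FPKM in AM-38, 0.03 or less in A-172 and 0 reads in SNU-466.

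SCN8A, found at the start of axons, had 2.16 and 2.05 FPKM in SNU-466, 1.1 and 1.08 in A-172 and 0.58 and 0.63 in AM-38, steps of 0.95 and 0.85 on the log2 scale that stayed under the 2-fold limit.

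Calcium channel genes split into pore and accessory subunits. CACNA1A, the pore of P/Q-type channels that trigger transmitter release, marked U-87MG, at 4.34 and 5.3 FPKM. The deposited gene length of 43150 bases makes these FPKM rest on 8419 reads, against 993 in SNU-1105 (0.65 and 0.52 FPKM) and 211 or fewer in each other line. U-87MG exceeded SNU-1105 by 3.05 on the log2 scale (SE 0.29, adjusted p = 8.57e-07). CACNA1A was at 0.11 FPKM or less in the 3-line table. CACNA1C, the L-type pore of heart and neurons, had 1.51 and 1.37 FPKM in SNU-466 and 0.07 or less in the other 2 lines. CACNA1D, another L-type pore, had 0.5 and 0.5 FPKM in SNU-466, 0.05 or less in A-172 and 0 reads in AM-38, and 0.16 or less in the 8 lines. The T-type pore CACNA1H had 1.05 and 1 FPKM in A-172 and 0.03 or less in SNU-466 and AM-38.

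The accessory subunit CACNA2D3 had 7.43 and 6.62 FPKM in KNS-42, 1.81 and 2.73 in SNU-1105, 0.85 and 0.62 in U-138MG and 0.59 or less in the other 5 lines. KNS-42 exceeded SNU-1105 by 1.63 on the log2 scale (SE 0.27, adjusted p = 0.000222). CACNA2D3 had 1.46 and 1.23 FPKM in AM-38, 1.3 and 1.27 in A-172 and 0.51 and 0.42 in SNU-466. CACNG7 and CACNG8 belong to the TARPs, partners of AMPA receptors, although their symbols follow the calcium channel gamma subunits. CACNG7 had 8.01 and 8.17 FPKM in KNS-42 and 0.33 or less in the other 7 lines (log2 difference 4.70, SE 0.39, adjusted p = 3.07e-07). GRIA2, the only AMPA subunit listed, had 2 reads in KNS-42, and the level of the other AMPA subunits there is not known.

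CACNG7 had 3.17 and 2.68 FPKM in AM-38, 0.07 and 0.16 in A-172 and 0 reads in SNU-466. CACNG8 had 2.48 and 2.56 FPKM in A-172, 1.68 and 1.96 in AM-38 and 0.01 and 0.01 in SNU-466. CACNG6, a gamma subunit found with muscle-type channels, had 8.87 and 8.01 FPKM in A-172, 0.98 and 1.24 in AM-38 and 0 reads in SNU-466, at least 33.9-fold lower than AM-38. All 3 gamma genes of that table were thus at or near 0 in SNU-466, which was called lower for 44.3% of all tested genes. These 3 genes are neighbours, between positions 53909335 and 54012669 of chromosome 19.

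Of 22 TRP channel genes in the gene name table, 6 were listed, and these stood low. TRPA1, the irritant sensor of sensory neurons, had 1.35 and 2.59 FPKM in T98G and 0.23 or less in the other 7 lines, called over LN-18 by 3.70 on the log2 scale (SE 0.52, adjusted p = 8.6e-05). TRPM8, the cold and menthol sensor, had 0.93 and 0.59 FPKM in SNU-1105, 0.53 and 0.74 in KNS-42, 0.67 and 0.61 in LN-229 and 0.33 or less elsewhere, with no line called higher. TRPV3, a warmth sensor of skin, had 1.16 and 1.45 FPKM in A-172 and 0.02 or less in AM-38 and SNU-466. TRPM2, opened by oxidative stress, had 0.82 and 0.57 FPKM in AM-38, 0.11 and 0.16 in A-172 and 0 reads in SNU-466. The magnesium channel TRPM6 reached 0.11 and 0.1 FPKM in LN-18 and 0.04 or less in all other libraries of both tables. Its call in LN-18 (adjusted p = 0.0273) was lost without either LN-18 library, either KALS-1 library or KNS-42 library 1, and with DESeq2.

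Anoctamins and CLC proteins move chloride or scramble lipids. ANO6, a calcium-activated lipid scramblase and channel, was among the few members high in all 3 lines, at 43.6 and 41.2 FPKM in SNU-466, 27.9 and 27.9 in A-172 and 18.4 and 19.9 in AM-38. The steps were 0.60 and 0.54 on the log2 scale (SE 0.05 each), under the 2-fold limit with adjusted p of 6.73e-21 and 6.73e-18. ANO2, a chloride channel of olfactory and photoreceptor cells, had 2.43 and 2.49 FPKM in AM-38 and 0.08 or less elsewhere. ANO4 had 6.42 and 4.91 FPKM in KNS-42, 0.14 and 0.28 in SNU-1105 and 0.06 or less in the other 6 lines (log2 difference 4.73, SE 0.46, adjusted p = 8.17e-07). ANO4 had 0.41 and 0.34 FPKM in SNU-466 and 0.09 or less in AM-38 and A-172.

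CLCN5, the endosomal chloride-proton exchanger mutated in Dent disease, had 6.26 and 5.68 FPKM in SNU-466, 2.4 and 2.61 in AM-38 and 0.83 and 0.81 in A-172. With RLE scaling, which shifts the median gene by -0.39 in SNU-466 and 0.34 in AM-38, its step from SNU-466 to AM-38 was 0.73 in place of 1.25 on the log2 scale, under the limit. CLCN2, a plasma membrane channel opened by hyperpolarisation, had 1.34 and 1.32 FPKM in SNU-466, 0.64 and 0.8 in A-172 and 0.59 and 0.47 in AM-38, with no line called higher.

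**Figure D5:**
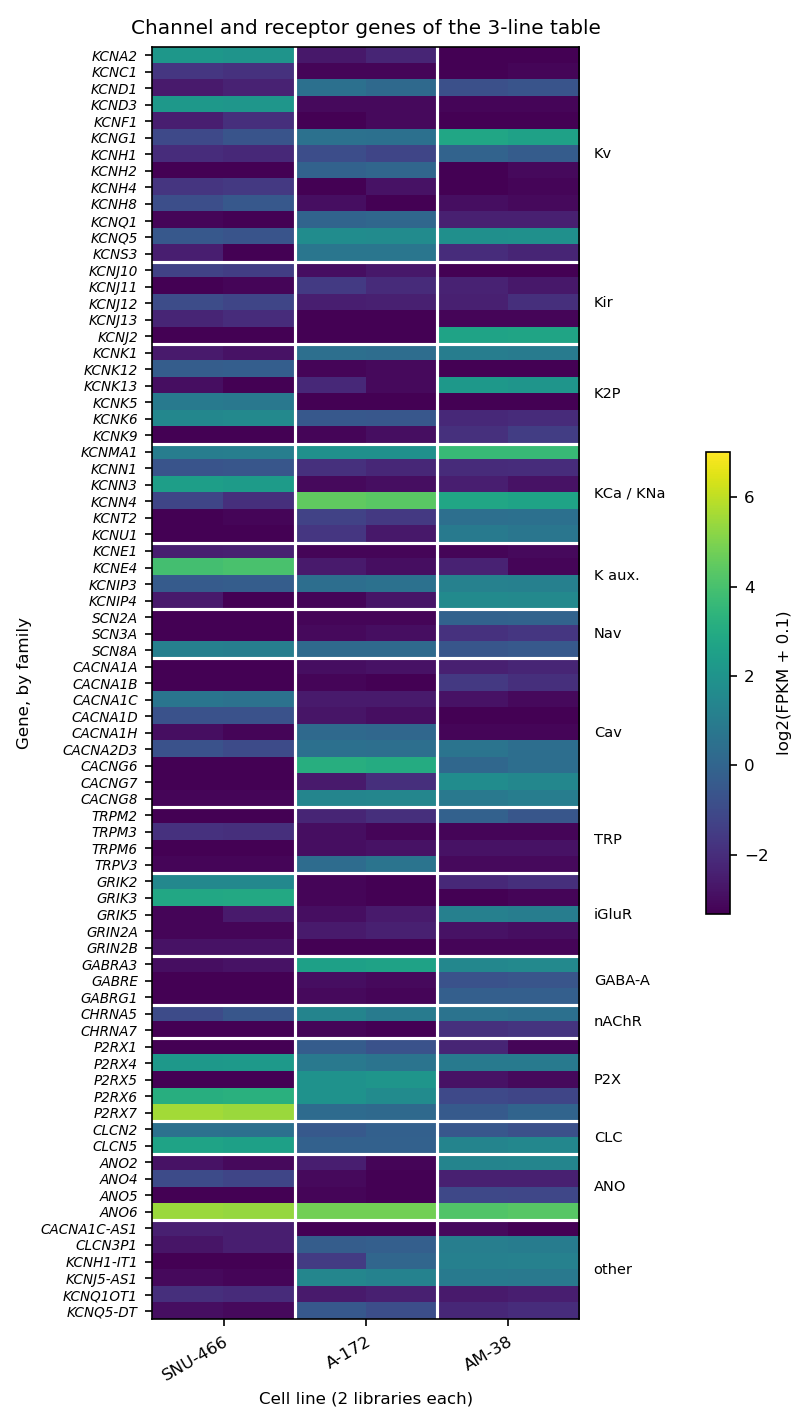
Levels of 77 members of the 3-line table as log2(FPKM + 0.1), by family (rows) and library (columns, 2 per line). ANO6 is bright in all 3 lines, P2RX7 and KCNE4 in SNU-466, KCNN4 and CACNG6 in A-172, and KCNMA1 and KCNJ2 in AM-38.

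By line, the 3-line table gave SNU-466 higher for 27 of 77 tested members (35.1%, against 32% of all tested genes) and lower for 31 (44.3% of genes). AM-38 was higher for 22 (28.6%, against 19.3% of genes) and lower for 8 (9.91% of genes). A-172 was higher for 14 (18.2%, against 13.1% of genes) and lower for 4 (4.13% of genes). For SNU-466, whose difference from the other lines nearly all listed genes share, the share of members higher is near that of all genes. In the 8-line table LN-18 was higher for 2 members (8.4% of genes), U-138MG for 2 (3.2%), and KALS-1 (7.73%), LN-229 (3.72%), T98G (3.77%) and U-87MG (4.63%) for 1 each, named above, and SNU-1105 for 0 (0.525%). T98G was lower for KCNT2 and KCNQ5 (3.29% of genes), KNS-42 for KCNE4 (0.907%) and LN-18 for KCNC4 (2.2%).

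Of the 6 channel symbols outside the families in the 3-line table, 3 reached a mean of 1 FPKM in some line, against 55.6% of all members there. CLCN3P1, a pseudogene, had 2.03 and 1.93 FPKM in AM-38, 0.73 and 0.77 in A-172 and 0.08 or less in SNU-466, and its reads may be shared with CLCN3. KCNJ5-AS1, opposite KCNJ5, had 2.55 and 2.26 FPKM in A-172, 1.74 and 1.7 in AM-38 and 0.02 or less in SNU-466. KCNH1-IT1 lies within KCNH1 on its strand and had 2.18 and 2.25 FPKM in AM-38, against 0.25 and 0.95 in A-172 and 0 reads in SNU-466. That lead was lost without A-172 library 1 and with DESeq2. KCNH1 itself was also highest in AM-38, at 0.87 and 0.7 FPKM, and reads of the overlapping pair cannot be told apart.

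Another 17 members had means under 1 FPKM in every line: KCNC1, KCNE1, KCNF1, KCNH4, KCNJ4, KCNJ11, KCNJ13, KCNK9, KCNK12, KCNN1, KCNQ1, CACNA1B, CACNA1E, TRPM3, ANO5, KCNQ1OT1 and CACNA1C-AS1. Too low to test were KCNH8 in the 8-line table, and TRPM6, KCNJ13, KCNF1 and CACNA1C-AS1 in the 3-line table.

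The 21 members of both tables were set side by side without a test, because the tables were fitted apart. For KCNE4, 8 of 11 lines stood at 1 FPKM or more, the most of any member. For CACNA1A, SCN3A and ANO4 a single line of 11 did so: U-87MG for CACNA1A, and KNS-42 for SCN3A and ANO4. KCND3 was at 1 FPKM or more in KNS-42 and SNU-466 alone, and KCNN3 in SNU-466 and LN-229 alone. Members at under 1 FPKM in all 11 lines were CACNA1D, GRIN2B, KCNH2, KCNH8, KCNJ12, SCN2A and TRPM6.

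Of 85 other channel and gap junction genes, 13 were listed in the 8-line table and 18 in the 3-line table, and all differed among lines. In the 8-line table some line was higher than every other for 9 of them (39.7% of all tested genes) and lower for 1 (9.64%). In the 3-line table the counts were 11 (64.4%) and 13 (58.4%). GJA1, the main astrocyte gap junction protein, had 321 and 288 FPKM in KNS-42, 222 and 339 in SNU-1105, 109 and 118 in U-87MG and 9.17 to 44.9 in the other 5 lines. HCN4, a pacemaker channel, had 2.57 and 2.71 FPKM in KALS-1 and 0.02 or less elsewhere. Of 42 channel-associated regulators, 6 were listed in the 8-line table and 15 in the 3-line table. Against the same shares of all genes, some line was higher for 2 and lower for 4 in the 8-line table, and higher for 11 and lower for 6 in the 3-line table. NLGN1, a synaptic adhesion protein, and DLG2, a synaptic scaffold, were the 2 of the 8-line table, both higher in KNS-42, where NLGN1 stood at 8.25 and 8.27 FPKM. LRRC38, an auxiliary gamma subunit of BK channels, had 13.1 and 14.4 FPKM in SNU-466, the line with the least KCNMA1 of the 3, and 0.02 or less in AM-38 and A-172. NETO1, a partner of kainate receptors, had 5.76 and 6.12 FPKM in AM-38, 0.59 and 0.67 in A-172 and 0 in SNU-466, where GRIK3 was highest.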

How the data were processed

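Members and gene lists were chosen with earlier results of these data known. Per the file headers, the authors deposited raw read counts, FPKM and a gene length per gene and library, in a table of 8 lines and a table of 3 lines. The submitters' processing notes name HISAT2 2.2.1, StringTie 1.3.3, HTSeq 0.6.0, cutadapt 1.9.1 and FastQC 0.10.1 with the hg38/GRCh38 build; the annotation release, any use of strand and the choice of listed genes are not given in the sources used here. Library totals (16958669 to 21213215 reads) were worked back from the counts, lengths and FPKM of well-covered genes, and gave back the deposited FPKM within 0.01 for at least 99.9% of genes.

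Counts were fitted per table with edgeR 4.0.16 (R 4.3.3), 1 coefficient per line, those totals as library sizes and the filter on low counts of edgeR, which left 2095 and 5035 genes. TMM and RLE factors assume that most genes do not differ, and were alternatives, as were DESeq2 1.42.0 and limma 3.58.1. A line counted as higher or lower than every other line where it lay on the same side of each of them; its largest p over these pairs was adjusted over all tested genes, called at an adjusted p under 0.05 and a log2 difference of at least 1. Differences between neighbouring lines were adjusted over genes and pairs. The SE of a log2 difference was worked back from the F statistic. Where a line had 0 reads, a fold is a bound with 3 reads over that line, and this bound covers counting error only. The steps were tested on simulated data.

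Values are given by library where reported, with low lines as a limit over their libraries, for the 3 highest members of each line, up to 4 called higher and 2 called lower per line, the highest of each family and members of both tables. Gene positions are from GENCODE 29 on GRCh38. Protein sequences were not used here. Some members enter the counts but are not reported by name here.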

Additional observations from a re-analysis of the deposited data

How the results depend on the processing

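The counts of members stayed within 1.5 times under every alternative. Members called higher than every other line numbered 19 in the 8-line table and 14 to 20 over alternatives (16 to 20 with 1 library left out), and 63 in the 3-line table and 48 to 74 (62 to 65). Those called lower numbered 4 and 3 to 5 (3 to 4), and 43 and 35 to 48 (34 to 40). Those that differed among lines numbered 38 and 38 to 39 (38 to 39), and 77 and 68 to 81 (76 to 78). The lowest counts of higher members came with a 4-fold limit. A member called higher in both tables counts once in each. Of these 82 calls, 71 held under every alternative with its own value. Another 5 calls of the 8-line table and 6 of the 3-line table were lost at least once, and none changed direction. The lost calls were for KCNH2, KCNK6, SCN1A-AS1, SCN2A and TRPM6 in the 8-line table. In the 3-line table they were for CLCN5, GABRA3, GRIN2A, KCNE1, KCNH1-IT1 and P2RX4. KCNE1 lost its call without AM-38 library 1 and with DESeq2. TMM shifted the median gene by 0.49 in T98G, 0.28 in LN-18 and 0.30 in KALS-1, and by -0.17 to -0.27 in KNS-42, LN-229, U-138MG and U-87MG (log2). The replicate numbers did not pair the libraries: replicate differences correlated between lines at -0.072 to 0.070 and -0.015 to 0.023. With the replicate block, 17 and 4 members were called higher and lower in the 8-line table, and 63 and 38 in the 3-line table. KCNH2 and TRPM6 in LN-18 lost their calls under the block (adjusted p = 0.0551 and 0.0528).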
